A study of Mus musculus with 4 samples.

Results

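Activated and regulatory CD4 T cells were examined in bone marrow (BM) and spleen of leukemic mice. Members were cells with at least 200 detected genes and at most 20% mitochondrial UMIs (unique molecular identifiers, each marking 1 captured transcript) that passed a gate on raw UMIs. The gate asked for at least 2 UMIs over the T cell receptor signaling chains Cd3e, Cd3d and Cd3g, 0 UMIs of Cd8a, Cd8b1 and the B cell genes Cd79a and Ms4a1, and either at least 1 UMI of Foxp3 or at least 2 over Foxp3, Icos and Tnfrsf4. It returned 818 of 37830 kept cells. Of these, 42 had a Foxp3 UMI and are called Foxp3-positive cells, and 776 had none and are called Foxp3-negative activated cells.

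The mice were wild-type C57BL/6J recipients, with an age of 6 to 8 weeks given, that carried MA9 cells, an acute myeloid leukemia driven by the MLL-AF9 fusion. The MA9 cells held a doxycycline-inducible hairpin against Prmt9 (shPrmt9) or a control hairpin (Ctrl), and all recipients drank doxycycline for 7 days. The hairpin was therefore in the leukemia and not in the T cells described here, which belonged to the host. The 2 tissues and 2 hairpins made 4 groups of 1 library each, and the study's methods describe a representative mouse per group. Values of all libraries are given in the order BM-Ctrl, BM-shPrmt9, Spleen-Ctrl and lastly Spleen-shPrmt9, and where only 2 values of a spleen comparison are given, Ctrl comes first. No test between conditions was possible, and every interval below is a 95% counting interval of these libraries, not of animals.

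CD4 T cells help other immune cells once they recognize peptide on MHC class II. Activation induces Icos, a costimulatory receptor of the CD28 family, and Tnfrsf4 (OX40), a costimulatory receptor of the TNF receptor family. Foxp3 is the lineage transcription factor of regulatory T cells, which restrain immune responses and carry the IL-2 receptor chain Il2ra, the inhibitory receptor Ctla4, the costimulatory receptor Tnfrsf18 (GITR) and the transcription factor Ikzf2 (Helios). Type I interferon switches on a shared set of antiviral genes in nearly any cell type through a transcription factor complex that binds paired GAAA motifs in promoters.

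Members were found in all 4 libraries. Foxp3-positive cells numbered 11 in BM-Ctrl, 4 in BM-shPrmt9, 11 in Spleen-Ctrl and 16 in Spleen-shPrmt9. Foxp3-negative activated cells numbered 43, 30, 183 and 520 in the same order. Their median depth was 5433, 4429, 5374 and 5945 UMIs for the Foxp3-positive cells and 5545, 5632, 6391 and 7968 UMIs for the Foxp3-negative activated cells. The UMIs summed over the members were 95487, 18217, 61312 and 140903 for the former, and 340851, 231374, 1251147 and 4673407 for the latter. The 4 Foxp3-positive cells of BM-shPrmt9 thus carried the fewest UMIs, and values from them are the least precise. In BM-Ctrl a Foxp3-positive cell held 43784 of the 95487 UMIs, and in Spleen-shPrmt9 another held 41122 of 140903.

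The libraries differed in ways that touch every comparison between them. Total UMIs ran from 84009744 to 188030429 per library. The Y-linked genes Ddx3y and Eif2s3y had 0 UMIs in all kept cells of both marrow libraries. In spleen, Ddx3y had 6388 and 6577 UMIs. Marrow and spleen therefore did not come from the same animals, and tissue and animal cannot be told apart. Kept cells of different libraries shared 148 barcodes over all library pairs, 9 of them between a member and a kept cell of another library and 0 between members.

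RNA of other cell types also differed between the libraries. Over the 6 granulocyte markers, which include S100a8 and Ngp, the Foxp3-negative activated cells held 26196 UMIs per 1000000 (CPM) in BM-Ctrl, 90045 in BM-shPrmt9, 149 in Spleen-Ctrl and 6136 in Spleen-shPrmt9, with UMIs of all 6 markers in each library. Over the 6 erythroid markers they held 4826, 2749, 329 and 34447 CPM. The Foxp3-positive cells held 1236, 5764, 81.6 and 681 CPM of the granulocyte markers and 471, 3129, 408 and 2569 CPM of the erythroid markers. Monocyte and macrophage markers ran the other way in the Foxp3-positive cells of marrow, at 1529 CPM in BM-Ctrl and 329 in BM-shPrmt9. This rested on few cells. Of the 146 such UMIs in BM-Ctrl, 128 were of Lyz2, with 121 in 1 cell, and 12 were of Cd68, all in 1 cell. Over the 8 markers of myeloid progenitors and MA9 cells, the Foxp3-positive cells held 4304 and 274 CPM in marrow and 0 and 28.4 CPM in spleen. In BM-Ctrl, 399 of the 411 progenitor UMIs lay in the deepest Foxp3-positive cell, of 43784 UMIs, which had 195 UMIs of the neutrophil elastase gene Elane, 156 of Prtn3, 6 of Cd3 and 1 of Foxp3. Without it the level was 232 CPM. In the Foxp3-negative activated cells the progenitor and MA9 markers stood at 164, 199, 6.39 and 127 CPM. Their Elane level in spleen was 0 and 57.3 CPM. Monocyte and macrophage markers stood at 1872, 4318, 35.2 and 138 CPM in them, and natural killer cell markers at 871, 847, 35.2 and 102 CPM. The defining gamma-delta T cell genes Trdc, Tcrg-C1 and Tcrg-C2 were at 0 in the Foxp3-positive cells and between 5.35 and 117 CPM in the Foxp3-negative activated cells. The part of RNA from other cells in the results below was not tested, apart from the recounts without cells that carry other lineages' UMIs.

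The label of the cells was checked against genes the gate did not use. Trac, which encodes the constant region of the T cell receptor alpha chain, had a UMI in 79.1%, 76.7%, 73.8% and 70.4% of the Foxp3-negative activated cells of the 4 libraries. A Cd4 UMI was seen in 39.5%, 53.3%, 51.9% and 56.0% of them, against at most 0.794% of B cells in any library. Those with Icos and no Tnfrsf4 UMI had Cd4 least often, in 2 of 16, 1 of 5, 10 of 33 and 32 of 68 cells, against 6 of 8, 5 of 10, 27 of 44 and 130 of 218 with Tnfrsf4 and no Icos UMI. Among the Foxp3-positive cells, Cd4 was seen in 6 of 11, 2 of 4, 4 of 11 and 4 of 16. Cells without a Cd4 UMI were therefore CD8-negative T cells whose CD4 lineage was not shown by Cd4 itself at this depth, and counts in the cells with a Cd4 UMI alone are given among the alternatives.

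The gate genes are a description, since they chose the cells. A Foxp3-positive cell had 1 to 8 Foxp3 UMIs with a median of 2 in BM-Ctrl, 1 to 6 with a median of 1 in BM-shPrmt9, 1 to 5 with a median of 3 in Spleen-Ctrl and 1 to 10 with a median of 3 in Spleen-shPrmt9. Cells just inside the threshold, with 1 Foxp3 UMI, were 3, 3, 4 and 4 of them. At least 2 UMIs of Icos and Tnfrsf4 were carried by 11 of 11, 4 of 4, 8 of 11 and 16 of 16 Foxp3-positive cells. Among the Foxp3-negative activated cells, those with the minimum of 2 Icos and Tnfrsf4 UMIs were 11, 7, 77 and 165, and a further 37, 24, 149 and 300 CD8-negative T cells lay just outside with 1 such UMI. Both genes were present in 19, 15, 106 and 234 of the Foxp3-negative activated cells, and Tnfrsf4 without Icos in 8, 10, 44 and 218.

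Icos lies beside Ctla4 on chromosome 1 of the mouse build GRCm38, at 60977927 to 61000320 against 60887000 to 60915832, both on the plus strand. Tnfrsf4 (156013843 to 156016612) lies beside Tnfrsf18 (156026164 to 156028895) on the plus strand of chromosome 4, and the interferon-stimulated gene Isg15 lies at 156199424 to 156200818 on the minus strand of the same chromosome. Foxp3 is on chromosome X at 7573644 to 7595245, on the plus strand.

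The Foxp3-positive cells carried further genes of the regulatory program. At least 3 of the 4 genes Il2ra, Ikzf2, Ctla4 and Tnfrsf18 had a UMI in 8 of 11, 2 of 4, 7 of 11 and 12 of 16 of them, or 69.0% in all. The same was seen in 13.3% of the Foxp3-negative activated cells and in 2.71% of the other CD8-negative T cells, which failed the Foxp3, Icos and Tnfrsf4 criterion. These 4 genes were not part of the gate. A Foxp3-negative cell is a cell in which no Foxp3 UMI was captured, and how many of these cells hold Foxp3 transcripts was not tested.

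Ikzf2, the zinc finger factor Helios, was higher in the Foxp3-positive cells of every library. In Foxp3-positive cells it stood at 524, 3403, 1354 and 1469 CPM over the 4 libraries. In Foxp3-negative activated cells it stood at 273, 376, 128 and 38.1 CPM. The level in Foxp3-positive cells was 1.92, 9.05, 10.6 and 38.6 times that of the Foxp3-negative activated cells. An Ikzf2 UMI was seen in 0.467%, 0%, 0.452% and 0.794% of B cells, at median B cell depths of 5024, 13106, 6427 and 16597 UMIs.

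Il2ra, the high-affinity IL-2 receptor chain, stood at 189, 165, 555 and 319 CPM in Foxp3-positive cells and at 111, 69.2, 24.0 and 78.3 CPM in Foxp3-negative activated cells, which put the former at 1.69, 2.38, 23.1 and 4.08 times the latter. Ctla4, which competes with CD28 for its ligands, stood at 241, 110, 196 and 341 CPM in the former and at 99.8, 99.4, 72.7 and 41.7 CPM in the latter. Tnfrsf9 (4-1BB), a costimulatory receptor of recently stimulated T cells, stood at 1738, 4721, 473 and 1015 CPM against 851, 661, 126 and 107 CPM. All 4 libraries had the higher Ikzf2, Il2ra and Tnfrsf9 level in the Foxp3-positive cells. In BM-shPrmt9 these levels rested on few cells and UMIs. Ctla4 had 2 UMIs there and a ratio of 1.10, Il2ra 3 UMIs, Ikzf2 62 UMIs in 2 of 4 cells, 37 of them in 1 cell, and Tnfrsf9 86 UMIs with 61 in 1 cell. The plot of regulatory genes sets these levels beside those of the other CD8-negative T cells.

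**Figure D1:**
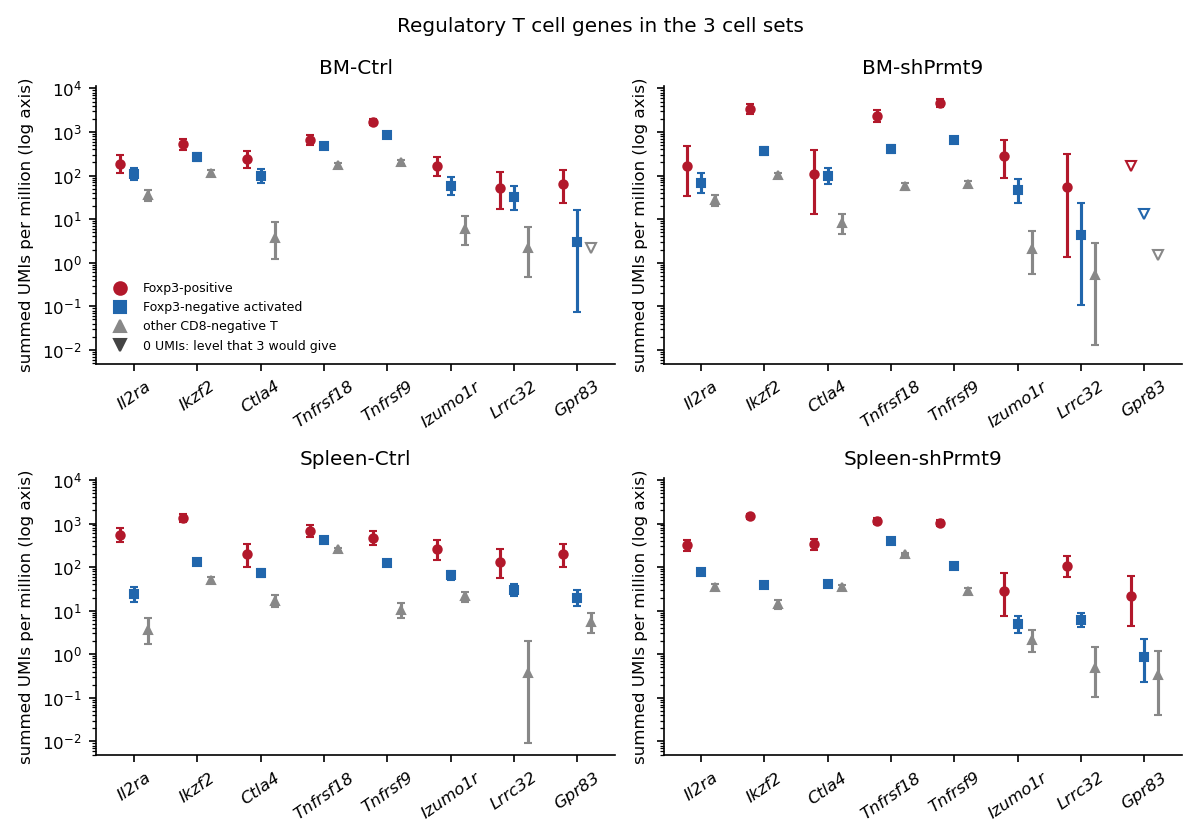
Summed UMIs as CPM (log axis) of 8 regulatory T cell genes in Foxp3-positive cells (circles), Foxp3-negative activated cells (squares) and other CD8-negative T cells (upward triangles) of each library, with 95% counting intervals as bars and open downward triangles for 0 UMIs. In spleen, Ikzf2 in the Foxp3-positive cells lay at 1354 and 1469 CPM, above the 128 and 38.1 CPM of the Foxp3-negative activated cells.

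The Foxp3-negative activated cells also differed from the other CD8-negative T cells of the same library in genes outside the gate. Izumo1r, which encodes folate receptor 4, was 9.85, 23.3, 3.05 and 2.30 times as high in them. Maf, a transcription factor of IL-10 and follicular helper programs, was 28.8, 15.4, 5.84 and 1.86 times as high, and the inhibitory receptor Pdcd1 (PD-1) 5.15, 17.3, 3.68 and 4.83 times. Tnfrsf9 was 4.11, 10.3, 12.2 and 3.78 times as high. For these 4 genes the level was thus higher in the Foxp3-negative activated cells of every library. T cell markers set the 2 kinds of cells apart in marrow, at 4187 and 3937 CPM in the Foxp3-negative activated cells against 2262 and 1270 CPM in the other CD8-negative T cells, while in spleen they stood at 4998 and 3428 against 4928 and 3484 CPM. The part of this difference in the marrow ratios was not tested. Levels by gate gene gave no common order. Tnfrsf9 stood at 735, 701, 193 and 151 CPM in cells with both Icos and Tnfrsf4, at 659, 121, 36.5 and 77.6 CPM in those with Icos alone and at 2353, 1130, 23.7 and 63.7 CPM in those with Tnfrsf4 alone, so that cells with both were the highest in the spleen libraries and those with Tnfrsf4 alone in the marrow libraries.

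The first comparison asked whether the members took a different share of the CD8-negative T cells when Prmt9 was targeted in the leukemia. In spleen, Foxp3-negative activated cells were 28.1% (24.7 to 31.7) of 652 CD8-negative T cells in Spleen-Ctrl and 39.4% (36.8 to 42.1) of 1319 in Spleen-shPrmt9. The share was 1.40 times as high (1.22 to 1.62), a difference of 11.4 percentage points (6.94 to 15.6). Cells were deeper in Spleen-shPrmt9, and a gate on UMIs admits more cells at greater depth. When each cell was thinned to 3000 UMIs and the gate applied again, the shares were 14.7% of 788 and 18.3% of 1132 cells and the ratio 1.24 (1.01 to 1.53). Thinning also changed which cells counted as CD8-negative T cells, since 201 and 290 of those cells had failed the gate on raw UMIs. With the population held to the 642 and 1237 CD8-negative T cells of the raw gate with at least 3000 UMIs, an alternative chosen after seeing the data, the shares were 15.1% and 19.2% and the ratio 1.27 (1.02 to 1.58). The direction also depended on the denominator. Of all kept cells the ratio was 3.15, and of kept cells without B cell UMIs it was 0.904 (0.772 to 1.06). B cells numbered 5306 of 8946 kept cells in Spleen-Ctrl and 1260 of 8065 in Spleen-shPrmt9.

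In marrow, Foxp3-negative activated cells were 23.2% of 185 CD8-negative T cells in BM-Ctrl and 22.1% of 136 in BM-shPrmt9, a ratio of 0.949 (0.628 to 1.42). A change smaller than this interval was not detectable with these numbers of cells.

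Foxp3-positive cells were 5.95% (3.01 to 10.4) of CD8-negative T cells in BM-Ctrl and 2.94% (0.807 to 7.36) in BM-shPrmt9, with a ratio of 0.495 (0.168 to 1.43). In spleen they were 1.69% and 1.21%, with a ratio of 0.719 (0.342 to 1.52). Both intervals included 1. Of kept cells without B cell UMIs the ratios were 0.266 (0.0896 to 0.792) in marrow and 0.463 (0.219 to 0.978) in spleen, and of all kept cells 0.314 (0.106 to 0.933) and 1.61 (0.763 to 3.41). The marrow ratio was 1.24 (0.313 to 4.84) after thinning, on 4 and 3 cells, and 0.523 (0.149 to 1.82) when the CD8-negative T cells were kept as the raw gate gave them.

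The criterion on B cell UMIs decided how many Foxp3-positive cells were counted in spleen. Of 85 kept cells with a Foxp3 UMI in Spleen-Ctrl, 11 were members and 60 had at least 2 Cd3 UMIs together with Cd79a or Ms4a1 UMIs. The 34 of those 60 without Cd8 UMIs had a median of 15038 UMIs and of 27 Cd79a UMIs per cell, against 5374 UMIs per Foxp3-positive member. In Spleen-shPrmt9, 16 of 53 cells with a Foxp3 UMI were members and 17 had B cell UMIs beside Cd3. With such cells let in, an alternative chosen after seeing the data, Foxp3-positive cells were 3.90% of 1153 cells in Spleen-Ctrl and 1.77% of 1696 in Spleen-shPrmt9, a ratio of 0.453 (0.288 to 0.712). After thinning this ratio was 0.520 (0.273 to 0.988). Whether these cells were T cells with B cell RNA or droplets holding a T and a B cell was not tested. Of the 60 cells, 13 were among those with the highest doublet scores of their library. The plot of shares shows the 3 counts side by side.

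**Figure D2:**
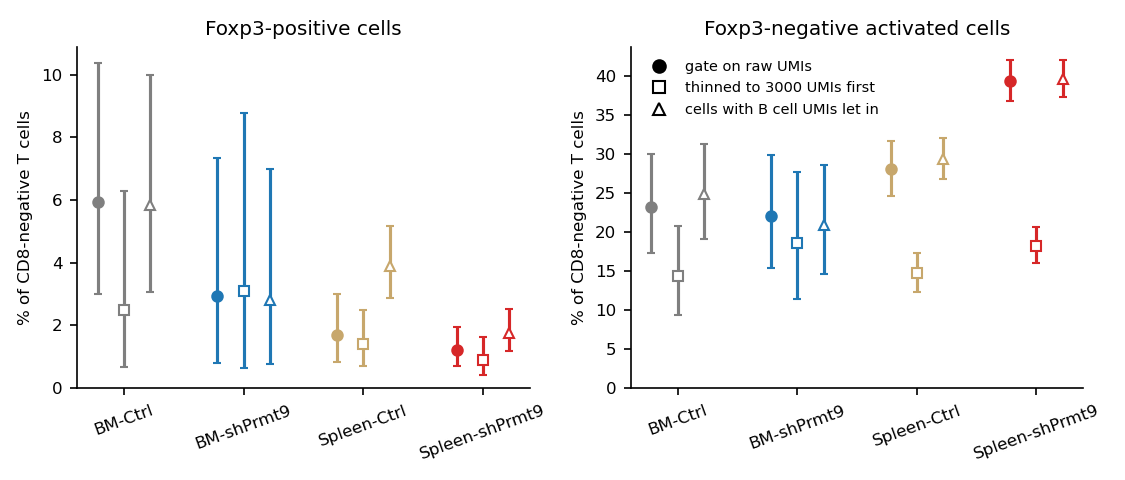
Share of CD8-negative T cells (%) that were Foxp3-positive (left) or Foxp3-negative activated (right) in each library, for the gate on raw UMIs (filled circles), after thinning to 3000 UMIs (open squares) and with cells carrying B cell UMIs let in (open triangles), with 95% binomial intervals. The Foxp3-negative activated share was higher in Spleen-shPrmt9 than in Spleen-Ctrl, at 39.4% against 28.1% on raw UMIs and 18.3% against 14.7% after thinning.

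The second comparison asked how gene levels in the members differed between shPrmt9 and Ctrl libraries. UMIs were summed over the cells of a set and scaled to CPM, and a gene with at least 20 UMIs over both libraries was counted as different when its CPM ratio was at least 2-fold. In bulk sums of this kind, fewer expressing cells and less RNA per cell cannot be told apart. Of 9425 such genes in Foxp3-negative activated cells of spleen, 7.23% were at least 2-fold higher in shPrmt9 and 8.16% at least 2-fold lower. In Foxp3-positive cells of spleen, 18.7% and 4.91% of 1691 genes were, but with B cell UMIs let in, 522 genes were higher and 611 lower. In marrow these shares were 6.53% and 9.46% of 4133 genes in Foxp3-negative activated cells, and 12.4% and 22.8% of 890 in Foxp3-positive cells. The shares of each set and tissue are the background for the counts of the gene lists below. Scaling by TMM factors shifted the median of all genes by 0.15 on the log2 scale in Foxp3-negative activated cells of spleen, where 681 genes higher and 769 lower became 861 and 563. In Foxp3-positive cells of marrow it shifted the median by -0.69, and 110 higher and 203 lower became 35 and 419. The marrow balance also turned under other settings, to 1244 higher and 337 lower in Foxp3-positive cells at a minimum of 5 UMIs, and from 270 and 391 to 280 and 205 in Foxp3-negative activated cells without the highest doublet scores.

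Interferon-stimulated genes were higher in the shPrmt9 libraries in both cell sets and both tissues. Of the 57 genes of the list with enough UMIs in Foxp3-negative activated cells of spleen, 45 were higher, 25 of them at least 2-fold, and 1 was at least 2-fold lower. Their median log2 ratio was 0.60, against -0.07 over all genes. In Foxp3-positive cells of spleen, 29 of 36 were higher, 20 at least 2-fold and 0 at least 2-fold lower, with a median of 1.19 against 0.17. Among all genes of spleen, 7.23% were at least 2-fold higher in Foxp3-negative activated cells and 18.7% in Foxp3-positive cells. At least 2-fold lower were 8.16% and 4.91%. The shPrmt9 sum was the larger in both sets of spleen, so a gene could reach 20 UMIs through it alone. These counts therefore depend on the filter. In marrow, 20 of 39 genes were at least 2-fold higher in Foxp3-negative activated cells, with a median of 1.16 against -0.10, and 4 of 6 in Foxp3-positive cells, with a median of 1.35 against -0.24. At least 2-fold lower were 0 genes in either set of marrow.

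Isg15 encodes a ubiquitin-like protein that is conjugated to other proteins in antiviral defense. Its level was 38.1, 700, 188 and 1601 CPM in Foxp3-negative activated cells and 20.9, 1592, 163 and 1157 CPM in Foxp3-positive cells of the 4 libraries. Both shPrmt9 libraries were above both Ctrl libraries in each set. The spleen ratio was 8.52 (7.48 to 9.75) in Foxp3-negative activated cells and 7.09 (3.76 to 15.1) in Foxp3-positive cells. In the Foxp3-positive cells of marrow Isg15 had 2 and 29 UMIs, with 15 of the latter in 1 cell.

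Ifit1 encodes a protein that binds viral RNA lacking a host cap. It stood at 2.93, 475, 109 and 827 CPM in Foxp3-negative activated cells and at 10.5, 988, 179 and 930 CPM in Foxp3-positive cells, with spleen ratios of 7.61 (6.41 to 9.10) and 5.18 (2.80 to 10.6). In the Foxp3-positive cells of marrow it had 1 and 18 UMIs, with 12 of the latter in 1 cell. The related Ifit3 stood at 2.93, 233, 114 and 487 CPM in Foxp3-negative activated cells, a spleen ratio of 4.29 (3.62 to 5.12). It has a near-identical neighbor, Ifit3b, and reads of the pair may have been split between them. In the marrow control library Ifit1 and Ifit3 had 1 UMI each in the Foxp3-negative activated cells, so their ratios in marrow, with lower limits of 28.5 and 13.7, are poorly bounded above.

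Rsad2 (viperin), an antiviral radical SAM enzyme, stood at 11.7, 160, 7.19 and 158 CPM in Foxp3-negative activated cells, 22.0 times (11.5 to 48.2) higher in the spleen of shPrmt9. Oasl1 went from 1 UMI to 403 and Cmpk2, a mitochondrial nucleotide kinase, from 2 to 110. Ifi208, of the Ifi200 family, was the exception. It had 52 UMIs in Spleen-Ctrl and 19 in Spleen-shPrmt9, a ratio of 0.0978 (0.0546 to 0.168), and reads of this family may be split among close paralogs. In Foxp3-positive cells, Bst2 (tetherin), which holds budding virus at the cell surface, had 8 and 137 UMIs in spleen, a ratio of 7.45 (3.68 to 17.6), and Oasl2 1 and 29.

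The upstream sequence of 4 of these genes is shown because it carries the paired GAAA motif through which interferon acts. The letters searched were GAAANNGAAA on either strand (TTTCNNTTTC when read on the other), in the 250 bases upstream of RefSeq transcript starts on GRCm38.p6. The motif was found in 2.98% of 32851 promoters, or in 3.46% of 27025 genes with a promoter entry, and 20 of 44 genes of the interferon-stimulated list with a promoter entry (45.5%) held it. Matches are in capitals, and each sequence is the 170 bases upstream of the start in the direction of transcription. In Isg15 (chr4:156200819-156200988, minus strand) 3 matches overlap, with first bases at -78, -72 and -66. In Ifit1 (chr19:34640719-34640888, plus strand) they begin at -104 and -85, in Ifit3 (chr19:34583359-34583528, plus strand) at -156 and -122, and in Rsad2 (chr12:26456453-26456622, minus strand) at -120. A match describes the letters and not a bound site.
Isg15: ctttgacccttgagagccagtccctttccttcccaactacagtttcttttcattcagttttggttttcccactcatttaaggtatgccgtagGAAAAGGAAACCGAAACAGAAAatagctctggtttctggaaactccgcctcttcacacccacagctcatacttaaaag
Ifit1: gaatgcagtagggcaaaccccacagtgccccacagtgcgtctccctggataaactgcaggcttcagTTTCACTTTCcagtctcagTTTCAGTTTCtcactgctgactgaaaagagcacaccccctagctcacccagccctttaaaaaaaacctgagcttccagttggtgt
Ifit3: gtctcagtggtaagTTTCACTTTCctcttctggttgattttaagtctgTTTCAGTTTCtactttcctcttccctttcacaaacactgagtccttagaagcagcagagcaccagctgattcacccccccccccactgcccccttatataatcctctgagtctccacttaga
Rsad2: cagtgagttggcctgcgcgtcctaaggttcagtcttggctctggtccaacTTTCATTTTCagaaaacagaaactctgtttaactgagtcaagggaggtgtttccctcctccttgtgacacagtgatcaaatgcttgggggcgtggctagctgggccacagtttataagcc

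The difference was spread over the cells and did not rest on a few, apart from the Foxp3-positive cells of marrow. There only 4 cells stood in BM-shPrmt9. The 58 interferon-stimulated genes of the list that the files hold took a median of 0.976% of a cell's UMIs (0.144 to 2.53) in Foxp3-negative activated cells of Spleen-Ctrl and 1.77% (0.341 to 5.69) in Spleen-shPrmt9. Of the 520 cells of Spleen-shPrmt9, 463 were above the Spleen-Ctrl median. In Foxp3-positive cells the medians were 1.12% (0.449 to 1.51) and 1.99% (0.777 to 5.52), and 14 of 16 cells were above the Spleen-Ctrl median. In marrow, the medians were 0.532% and 1.19% in Foxp3-negative activated cells, with 24 of 30 above the BM-Ctrl median, and 0.562% and 1.52% in Foxp3-positive cells, with 4 of 4 above. The cells of the paired libraries overlapped in all 4 comparisons. An Isg15 UMI was seen in 57.9% of Foxp3-negative activated cells of Spleen-Ctrl and 97.3% of Spleen-shPrmt9, or 38.5% and 94.1% after thinning to 3000 UMIs. B cells, which also respond to interferon, showed 6.86% and 58.8% after thinning.

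**Figure D3:**
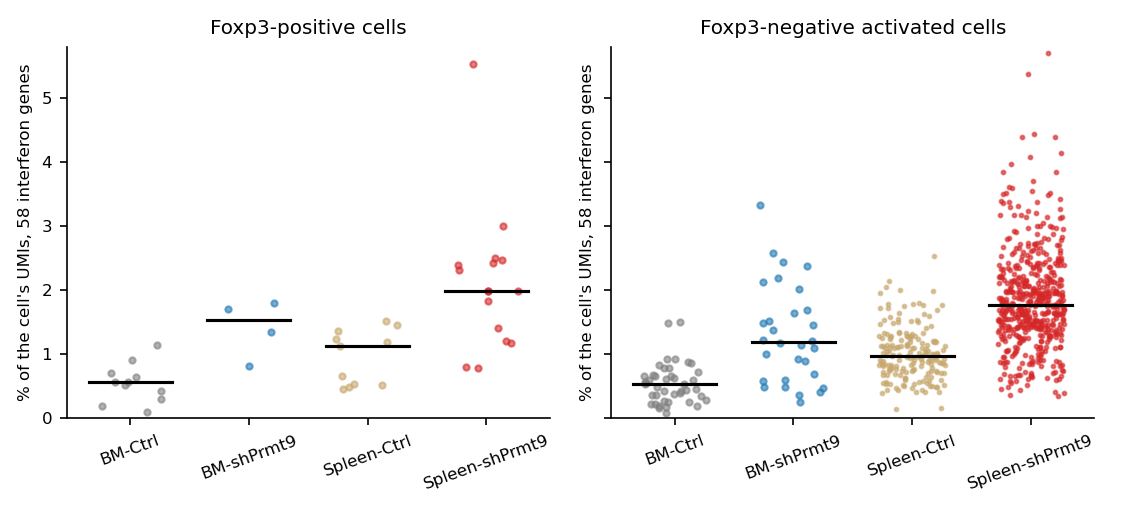
Percent of each cell's UMIs taken by 58 interferon-stimulated genes, 1 point per cell with the median as a bar, for Foxp3-positive (left) and Foxp3-negative activated cells (right) of each library. The medians of Foxp3-negative activated cells were 0.532%, 1.19%, 0.976% and 1.77% from left to right, and cells of the paired libraries overlapped.

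The interferon difference was not particular to the members. In spleen the Isg15 ratio in Foxp3-negative activated cells was 1.38 times (1.18 to 1.60) that of the other CD8-negative T cells and 1.18 times (1.02 to 1.37) that of CD8 T cells, defined by at least 2 Cd3 and 2 Cd8 UMIs. In Foxp3-positive cells it was 1.14 times (0.601 to 2.18) that of the other CD8-negative T cells. Over all kept cells of spleen, Isg15 stood at 92.6 and 1699 CPM and Ifit1 at 31.2 and 352 CPM. The Isg15 level of the Foxp3-negative activated cells was 203% of that level in Spleen-Ctrl and 94.2% in Spleen-shPrmt9. For the Foxp3-positive cells it was 176% and 68.1%. The share of UMIs over the whole list had medians of 1.06% and 1.75% in the other CD8-negative T cells and 0.815% and 1.62% in CD8 T cells.

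Genes tied to interferon gamma and MHC class I presentation were counted apart. In marrow, 14 of 27 measured genes of this list were at least 2-fold higher in Foxp3-negative activated cells of shPrmt9, 2 were lower and the median log2 ratio was 1.04. In spleen, 1 of 32 was higher, 1 was lower and the median was 0.14. In Foxp3-positive cells, 7 of 12 were higher and 1 lower in marrow, with a median of 1.14, and 2 of 25 higher and 1 lower in spleen, with a median of 0.14. The difference between tissues was not tested.

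Cxcl10, a chemokine that draws CXCR3-bearing T cells, was the spleen gene of this list with the largest ratio in both sets. It stood at 5.87, 3103, 87.1 and 2866 CPM in Foxp3-negative activated cells, with 2, 718, 109 and 13394 UMIs, and a spleen ratio of 32.9 (27.2 to 40.1). In Foxp3-positive cells it stood at 94.3, 4556, 294 and 2264 CPM, with a spleen ratio of 7.71 (4.80 to 13.2). A Cxcl10 UMI was seen in 19.7% and 93.7% of the Foxp3-negative activated cells of the spleen libraries and in 3.98% and 62.1% of their B cells, and its level over all kept cells was 54.2 and 972 CPM. The share of free Cxcl10 RNA in these counts was not tested. Socs1, a feedback inhibitor of cytokine signaling, was lower in Foxp3-negative activated cells of spleen at 563 and 178 CPM, a ratio of 0.317 (0.286 to 0.351), and in marrow it stood at 290 and 82.1 CPM. Cd274 (PD-L1) stood at 151 and 250 CPM in spleen.

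**Figure D4:**
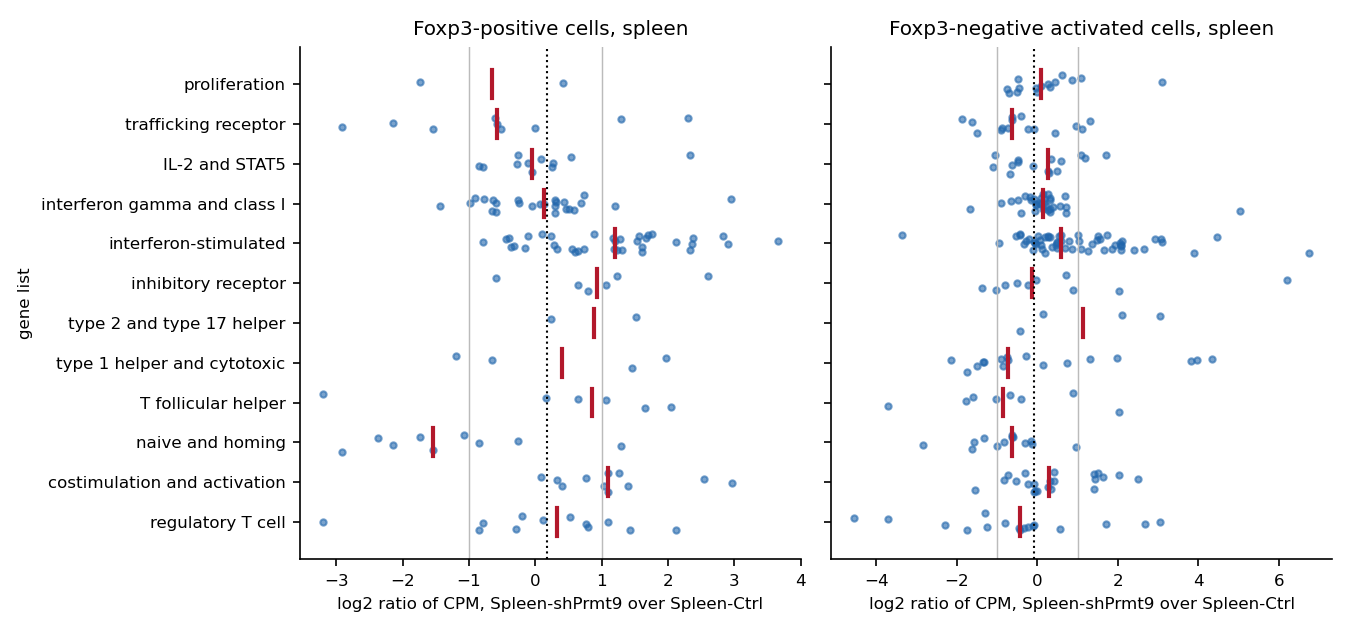
Log2 ratio of CPM, Spleen-shPrmt9 over Spleen-Ctrl, for each gene (points) of 12 gene lists with at least 20 UMIs, in Foxp3-positive (left) and Foxp3-negative activated cells (right), with the list median as a thick bar, the median of all genes as a dotted line and 2-fold limits as gray lines. Interferon-stimulated genes had medians of 1.19 and 0.60, and naive and homing genes of -1.55 and -0.63; genes with 0 UMIs in a library are drawn at the bound that 3 UMIs give.

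Genes of naive and homing T cells were mostly lower in the members of the shPrmt9 spleen. In Foxp3-positive cells, 6 of 9 measured genes were at least 2-fold lower and 1 was higher, with a median log2 ratio of -1.55. The Foxp3-negative activated cells had 5 of 13 at least 2-fold lower and 0 at least 2-fold higher, with a median of -0.63. Of the 13, 1 had a ratio above 1. Among all genes, 4.91% were at least 2-fold lower in Foxp3-positive cells of spleen and 8.16% in Foxp3-negative activated cells. S1pr1, the receptor through which T cells leave lymphoid organs, stood at 341 CPM in Spleen-Ctrl and 110 in Spleen-shPrmt9 in Foxp3-negative activated cells, and at 375 and 49.7 CPM in Foxp3-positive cells. The ratios were 0.324 (0.284 to 0.369) and 0.132 (0.0480 to 0.319). Lef1, a transcription factor of naive T cells, stood at 473 and 142 CPM in Foxp3-positive cells. Igfbp4, Itga6 and Dapl1 had ratios of 0.140, 0.336 and 0.398 in Foxp3-negative activated cells. Ccr7, the receptor for lymph node chemokines, went the other way in both sets. In Foxp3-positive cells it stood at 342 and 837 CPM, and 64.4% of its UMIs in Spleen-shPrmt9 came from 1 cell. In Foxp3-negative activated cells with both Icos and Tnfrsf4 it stood at 390 and 795 CPM. Those with Tnfrsf4 alone held 477 and 650 CPM, and those with Icos alone 205 and 757 CPM. In marrow, 3 of 10 naive and homing genes were at least 2-fold lower in Foxp3-negative activated cells, with a median of -0.38.

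Costimulation and activation genes were higher in Foxp3-positive cells of the shPrmt9 spleen, where all 11 measured genes had a ratio above 1 and 7 were at least 2-fold higher. The gate genes Icos and Tnfrsf4 were among the 7. Without them, 5 of 9 genes were at least 2-fold higher, with a median log2 ratio of 1.09 against 0.17 over all genes. Tnfrsf9 stood at 473 and 1015 CPM, a ratio of 2.15 (1.43 to 3.32), and Hif1a, a transcription factor of low oxygen and glycolysis, at 245 and 646 CPM. Batf, a partner of IRF4, had 2 and 36 UMIs, with 88.9% of the latter in 1 cell. It reached the minimum of 20 UMIs through Spleen-shPrmt9 alone. Its log2 ratio was -1.35 in cells with a Cd4 UMI, and that of Tnfsf8 was -0.31 with at least 2 Foxp3 UMIs. Only 11 and 16 cells stood behind these values, and the deepest cell of Spleen-shPrmt9 gave 41122 of its 140903 UMIs. The sum in Spleen-Ctrl was 61312. The other genes of the 25 in the list were under 20 UMIs over both libraries. A gene could reach that minimum through the larger Spleen-shPrmt9 sum alone, so these counts depend on the filter.

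The Foxp3-negative activated cells of spleen had 7 of 22 costimulation and activation genes at least 2-fold higher and 1 lower, with a median of 0.29. Cd69, an early activation antigen that retains T cells in tissue, stood at 129, 160, 75.9 and 433 CPM over the 4 libraries. Spleen-shPrmt9 was the highest of the 4, with a spleen ratio of 5.70 (4.64 to 7.08) and a UMI in 306 of 520 cells against 42 of 183. In Foxp3-positive cells Cd69 stood at 136, 165, 147 and 156 CPM, and its spleen ratio of 1.06 (0.471 to 2.62) was 0.196 times (0.0890 to 0.432) that of the other CD8-negative T cells. Those other cells thus also had a higher Cd69 level in Spleen-shPrmt9 than in Spleen-Ctrl, and the difference was not particular to the members. In the Foxp3-negative activated cells of spleen, Irf4, which T cell receptor signals induce, had a ratio of 4.11 (2.61 to 6.82). The immediate early receptor Nr4a1 had a ratio of 3.08 (1.34 to 8.68) there, while Cd40lg, the ligand with which CD4 cells help B cells, stood at 43.2 and 14.8 CPM. Cd44 stood at 35.2 and 33.2 CPM, a ratio of 0.943 (0.671 to 1.35).

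Of the regulatory T cell list, 3 of 12 measured genes were at least 2-fold higher and 1 was lower in Foxp3-positive cells of spleen, and 3 of 17 were higher and 6 lower in Foxp3-negative activated cells. The shares over all genes were 18.7% higher and 4.91% lower in the former and 7.23% and 8.16% in the latter. The Foxp3 level among Foxp3-positive cells, which the gate used, was 367, 494, 473 and 412 CPM. Ikzf2 in Foxp3-positive cells had a spleen ratio of 1.09 (0.837 to 1.42), Ctla4 of 1.74 (0.911 to 3.60), Il2ra of 0.576 (0.361 to 0.927) and Tnfrsf18 of 1.69 (1.20 to 2.43). Tgfb1, a suppressive cytokine, had 3 and 30 UMIs, and Capg, an actin-capping protein, 6 and 37. Gpr83, a surface receptor of regulatory cells, had 12 and 3.

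In Foxp3-negative activated cells of spleen, the 3 regulatory genes at least 2-fold higher were Il2ra, the cytokine subunit gene Ebi3 with 2 and 48 UMIs and the IL-33 receptor gene Il1rl1 with 1 and 31. Tgfb1 stood at 94.3 and 88.4 CPM, Capg at 102 and 74.9 CPM, and Gpr83 had 25 and 4 UMIs. Ikzf2 stood at 128 and 38.1 CPM, a ratio of 0.298 (0.239 to 0.371), which was 1.09 times (0.759 to 1.56) that of the other CD8-negative T cells. Ctla4 stood at 72.7 and 41.7 CPM, a ratio of 0.574 (0.445 to 0.744), and Tnfrsf18 at 412 and 390 CPM, a ratio of 0.948 (0.859 to 1.05). Izumo1r had 81 and 23 UMIs, or 64.7 and 4.92 CPM, a ratio of 0.0760 (0.0456 to 0.122). It was also lower in the other CD8-negative T cells, at 21.3 and 2.14 CPM, and in CD8 T cells, at 14.2 and 2.25 CPM. Lrrc32 (GARP), which tethers latent TGF-beta, stood at 30.4 and 6.21 CPM. Il2ra went the other way, from 24.0 to 78.3 CPM, a ratio of 3.27 (2.25 to 4.91). Its ratio in the other CD8-negative T cells was larger still, so that the Foxp3-negative activated cells had 0.342 times (0.146 to 0.738) that ratio. After thinning, an Il2ra UMI was seen in 2.75% and 12.7% of Foxp3-negative activated cells and in 3.59% and 9.12% of B cells. Of the other genes of the IL-2 and STAT5 list, Pim1 stood at 589 and 1345 CPM, Cish at 71.9 and 152 CPM and the receptor chain Il2rb at 129 and 61.0 CPM. In that list 3 of 15 genes were at least 2-fold higher and 2 lower in Foxp3-negative activated cells, and 1 of 11 higher and 0 lower in Foxp3-positive cells. The shares over all genes were 7.23% higher and 8.16% lower in the former and 18.7% and 4.91% in the latter.

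Lag3, an inhibitory receptor for MHC class II, was the inhibitory receptor with the largest ratio. It had 4, 27, 3 and 831 UMIs in Foxp3-negative activated cells, or 11.7, 117, 2.40 and 178 CPM. The spleen ratio was 74.2 (25.3 to 360) and the marrow ratio 9.94 (3.46 to 39.1). In Foxp3-positive cells it had 2, 5, 0 and 42 UMIs, so the spleen ratio was at least 6.09, taken against 3 counts. A Lag3 UMI was seen in 0.549% and 32.9% of Foxp3-negative activated cells of the spleen libraries after thinning, against 0.612% and 3.68% of B cells. The ratio in Foxp3-negative activated cells was 0.801 times (0.179 to 3.59) that of the other CD8-negative T cells. Pdcd1 stood at 150, 186, 47.2 and 23.1 CPM, and its spleen ratio was 0.490 (0.354 to 0.685). In the whole list, 2 of 10 genes were at least 2-fold higher and 2 lower in Foxp3-negative activated cells of spleen, and 3 of 6 higher and 0 lower in Foxp3-positive cells. The shares over all genes were 7.23% higher and 8.16% lower in the former and 18.7% and 4.91% in the latter.

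Helper programs gave mixed counts. Of the type 1 helper and cytotoxic list, 5 of 17 genes were at least 2-fold higher and 5 lower in Foxp3-negative activated cells of spleen. Ccl5, a chemokine of memory and cytotoxic T cells, stood at 657, 6306, 411 and 5778 CPM, with ratios of 9.60 (8.33 to 11.1) in marrow and 14.1 (12.9 to 15.4) in spleen, and at 105, 3019, 636 and 2484 CPM in Foxp3-positive cells. In the Foxp3-positive cells of Spleen-Ctrl all 39 Ccl5 UMIs came from 1 of 11 cells, while 15 of 16 cells of Spleen-shPrmt9 had some. In marrow, 9 of 10 Ccl5 UMIs of BM-Ctrl and all 55 of BM-shPrmt9 came from 1 Foxp3-positive cell each, and all 9 Cxcl10 UMIs of BM-Ctrl from 1. Over all kept cells Ccl5 stood at 216 and 4152 CPM in spleen. Ly6c2, a surface antigen that interferon and memory programs induce, stood at 27.2 and 427 CPM in Foxp3-negative activated cells of spleen, and the granule protein Nkg7 at 37.6 and 8.56 CPM. Ifng had 9 and 20 UMIs, or 7.19 and 4.28 CPM, and Gzma 2 and 150 UMIs, of which 90.0% lay in 1 cell.

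Of the T follicular helper list, 4 of 8 genes were at least 2-fold lower and 1 higher in Foxp3-negative activated cells of spleen. Maf stood at 66.3 and 22.0 CPM, a ratio of 0.332 (0.246 to 0.449), and the adaptor Sh2d1a (SAP) at 94.3 and 27.6 CPM, while the surface glycoprotein Cd200 stood at 22.4 and 91.6 CPM. In Foxp3-positive cells, 3 of 6 were higher and 1 lower. The shares over all genes were 7.23% higher and 8.16% lower in Foxp3-negative activated cells of spleen and 18.7% and 4.91% in Foxp3-positive cells. Of the type 2 and type 17 helper list, 2 of 4 genes were at least 2-fold higher in Foxp3-negative activated cells, Il1rl1 with 1 and 31 UMIs and Il5 with 0 and 48, and 85.4% of the Il5 UMIs lay in 1 cell. Gata3 and Rora had ratios of 0.741 (0.536 to 1.04) and 1.11 (0.849 to 1.47). Trafficking receptors counted 2 of 15 higher and 3 lower, with the integrin chain Itgb7 at 193 and 52.6 CPM, Cxcr6 at 57.5 and 20.3 CPM and Cxcr4 at 18.4 and 45.4 CPM.

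Proliferation genes were few in the members. Mki67, a marker of cycling cells, had 21, 0, 2 and 6 UMIs in Foxp3-negative activated cells, and 1 UMI in all Foxp3-positive cells together, in BM-shPrmt9. In marrow, 8 of 12 measured proliferation genes were at least 2-fold lower in Foxp3-negative activated cells of shPrmt9 and 0 were higher, with a median log2 ratio of -2.10. This depended on which cells were counted. The marrow log2 ratios of Ube2c and Stmn1 turned to 2.36 and 1.04 in cells with a Cd4 UMI. That of Ube2c was 0.061 without cells carrying other lineages' UMIs. In spleen, 2 of 15 were higher and 0 lower, with a median of 0.10.

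Outside the lists, the genes with the largest spleen ratios in Foxp3-negative activated cells included genes of other lineages. The granule genes Camp and Ngp had 3 and 1421, and 10 and 3056 UMIs, and 41.6% and 44.3% of those in Spleen-shPrmt9 lay in 1 cell. Cstdc5, a cysteine protease inhibitor of granulocytes, had 7 and 2498 UMIs. Granulocyte markers moved with them, as given above. Krt16, an epithelial keratin, had 0 UMIs in the kept cells of both Ctrl libraries and 1427 UMIs in 131 of 520 Foxp3-negative activated cells of Spleen-shPrmt9, at least 127 times higher against 3 counts. It was seen in 25.2% of these cells, 25.5% of the other CD8-negative T cells, 17.9% of CD8 T cells, 4.37% of B cells and 11.6% of all kept cells of that library. In BM-shPrmt9 it had 0 UMIs in the members and 109 in all kept cells. Trim30c, of the interferon-inducible Trim30 cluster with its close paralogs, had 11 and 2210 UMIs, and the stress factor Atf3 1 and 165.

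The lowest spleen ratios in Foxp3-negative activated cells were those of Gdpd3, Izumo1r, Ifi208, Ssbp4, Tec, Jaml, Igfbp4 and Elovl6, between 0.0297 and 0.149. Gdpd3, a lysophospholipase, had 135 and 15 UMIs, Tec, a kinase of T cell receptor signaling, 41 and 18, and Jaml, a junctional adhesion protein, 156 and 80. In marrow Gdpd3 had 2 and 1 UMIs and Tec 2 and 5, too few for a ratio that could be read.

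In Foxp3-positive cells the highest spleen ratios were those of H2-Eb1, Cd74, Selenos, S100a11, Cxcl10, Bst2, Ramp3 and Isg15. H2-Eb1 and Cd74, which belong to MHC class II presentation, had 98.3% and 88.5% of their Spleen-shPrmt9 UMIs in 1 cell. Selenos, a selenoprotein of the endoplasmic reticulum, had 2 and 61 UMIs, with those of Spleen-shPrmt9 in 13 of 16 cells. The lowest were Ecm1, Gimap3, Gimap4, Ms4a4b, Gbp4, Samhd1, Eif3k and Jun, between 0.145 and 0.403. Gimap3 and Gimap4, GTPases of T cell survival, stood at 1419 and 419 CPM and at 734 and 220 CPM, and Ms4a4b, a membrane protein of T cells, at 2724 and 852 CPM.

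**Figure D5:**
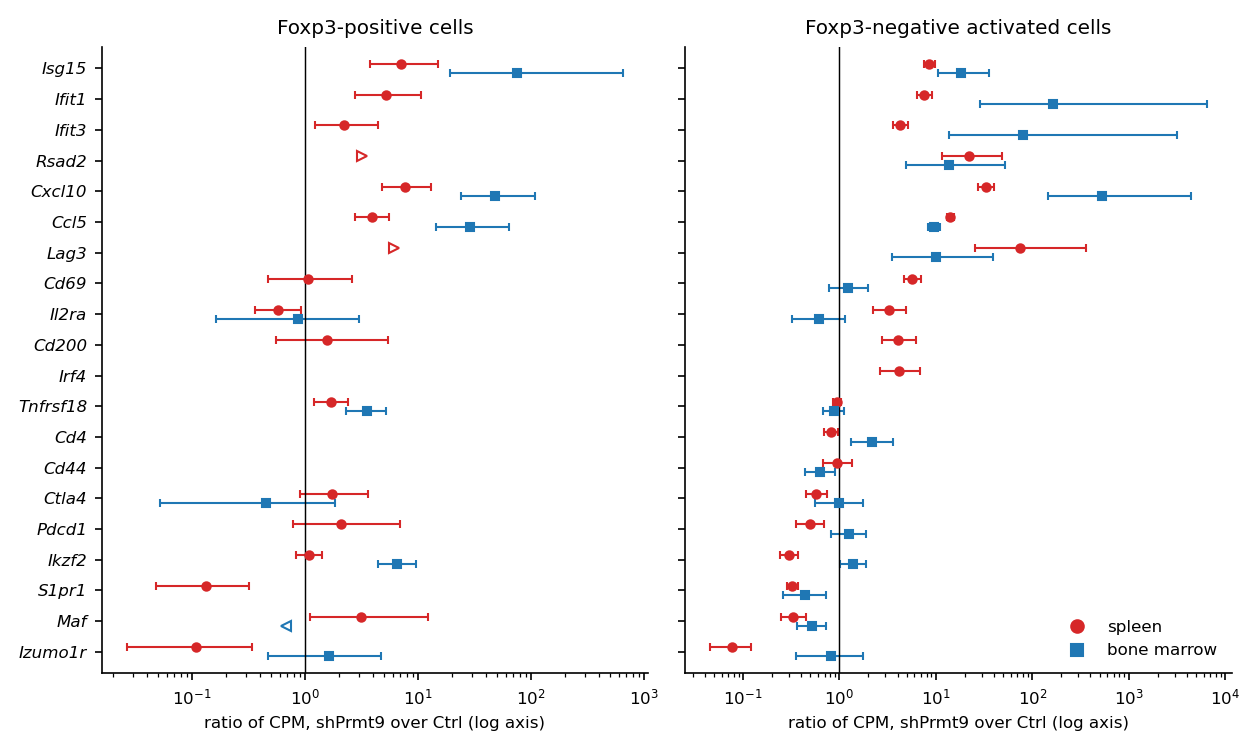
Ratio of CPM, shPrmt9 over Ctrl (log axis), for 20 genes in Foxp3-positive (left) and Foxp3-negative activated cells (right) of spleen (circles) and marrow (squares), with 95% counting intervals; open triangles are bounds against 3 counts, and genes under 20 UMIs over both libraries are left out. Isg15, Cxcl10 and Ccl5 lay above 1 in both tissues and both sets, Ccl5 in Foxp3-positive cells of marrow resting on 1 cell for all 55 UMIs of shPrmt9, and Ikzf2 in Foxp3-negative activated cells lay at 0.298 in spleen and 1.38 in marrow.

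The hairpin's target was checked in the members themselves. Prmt9 (chromosome 8, 77549397 to 77581338, plus strand) had 5, 10, 22 and 48 UMIs in Foxp3-negative activated cells, and 1, 0, 2 and 2 in Foxp3-positive cells. The spleen ratio was 0.584 (0.346 to 1.02) and the marrow ratio 2.95 (0.918 to 11.0), so no difference was shown in either tissue at these counts.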

How the data were processed

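The authors deposited unnormalized UMI counts, 1 matrix per library, from Cell Ranger (6.0.2 per the file headers, 6.1.1 per the submitters' processing notes) on build mm10. The annotation is not given in the sources used here. The 32285 genes were used as deposited, and groups were taken from library titles. Members, gene lists and tests were chosen with earlier results of these data known. The gate had no doublet filter. Scrublet (scanpy 1.11.5) called 0 and 1 cells by its own threshold in BM-shPrmt9 and Spleen-Ctrl, so an alternative left out the top-scored cells instead, at 0.8% per 1000 cells.

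UMIs were summed per set and library with numpy 2.4.6 and pandas 2.3.3 on Python 3.11.15 and scaled to counts per 1000000. Levels carry exact Poisson intervals, shares exact Clopper-Pearson intervals, share ratios score intervals, share differences Newcombe intervals and CPM ratios exact conditional intervals (scipy 1.17.1, statsmodels 0.14.6). Ratios between cell sets carry exact conditional intervals at low counts and log-normal ones otherwise. All are 95% intervals that cover counting error only. With 1 library per group there are no p-values. CD8 T cells had at least 2 Cd3 and 2 Cd8 UMIs, and B cells at least 2 Cd79a, 1 Ms4a1 and 0 Cd3 UMIs. TMM factors came from edgeR 4.0.16 (R 4.3.3), used for scaling only. Ratio code was checked on simulated data. Gene positions are from GENCODE on GRCm38, matched by gene ID.

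Named were 16 preset genes, the gate genes, in each list the 4 genes with the largest absolute log2 ratio among those with at least 30 UMIs in spleen, and the 8 highest and 8 lowest spleen ratios among genes with at least 50 UMIs and a UMI in at least 10% of cells of the higher library, without mitochondrial, ribosomal, globin, immunoglobulin, receptor segment, predicted and sex-linked genes. Gpr83, Trac, Ebi3, Elane, Prtn3 and, in Foxp3-negative activated cells, Tnfrsf9 were added after their values were seen. Some named genes are not reported here.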

Additional observations from a re-analysis of the deposited data

Results flagged for a closer look

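For 8 genes the shPrmt9 over Ctrl ratio lay above 1 in 1 tissue and below 1 in the other, with counting intervals on opposite sides of 1. The difference between tissues was not tested, and tissue and animal cannot be told apart. In Foxp3-positive cells, H2-Eb1 had a spleen ratio of 26.1 (7.07 to 218). In marrow it had 41 UMIs in Ctrl, all in 1 cell, and 0 in shPrmt9, at most 0.384 against 3 counts. Without the cell with most H2-Eb1 UMIs in each library the spleen log2 ratio was -0.20. Maf, a transcription factor of IL-10 and follicular helper programs, had a ratio of 3.15 (1.11 to 12.4) in spleen. In marrow it had 23 and 0 UMIs, at most 0.684, and 14 of the 23 lay in 1 cell. Samhd1, which degrades nucleotides in antiviral defense, had a ratio of 0.376 (0.289 to 0.490) in spleen and 2.84 (1.33 to 5.80) in marrow.

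Among the Foxp3-negative activated cells, Cd4 had a ratio of 0.820 (0.691 to 0.975) in spleen and 2.16 (1.30 to 3.62) in marrow. Ifi208 had a ratio of 0.0978 (0.0546 to 0.168) in spleen and 3.44 (1.24 to 10.9) in marrow. Ikzf2 had a ratio of 0.298 (0.239 to 0.371) in spleen and 1.38 (1.02 to 1.87) in marrow. Il5, a cytokine of type 2 helper cells, was at least 4.28 times higher in spleen (0 and 48 UMIs, 85.4% of the latter in 1 cell) and had 25 and 0 UMIs in marrow, at most 0.177. Ube2c, a mitotic ubiquitin-conjugating enzyme, had a ratio of 8.57 (1.43 to 349) in spleen, on 1 and 32 UMIs, and 0.147 (0.0458 to 0.367) in marrow.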

How the results depend on the processing

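Each share, median and count was recomputed under up to 12 alternatives. No paired analysis was possible because each group was 1 library. The share ratio of Foxp3-negative activated cells in spleen was 1.40, and it was 1.66 with at least 3 Icos and Tnfrsf4 UMIs, 3.15 of all kept cells and 0.904, reversed, of kept cells without B cell UMIs. In marrow it was 0.949, and 1.56 without cells carrying other lineages' UMIs, 0.602 of all kept cells and 0.511 of kept cells without B cell UMIs. The share ratio of Foxp3-positive cells in spleen was 0.719, and 1.61 of all kept cells, 0.463 of kept cells without B cell UMIs and 0.457 with a Cd4 UMI. In marrow it was 0.495, and 1.24 after thinning, 0.170 with at least 2 Foxp3 UMIs, 0.314 of all kept cells and 0.266 of kept cells without B cell UMIs. The median log2 ratio of interferon-stimulated genes stayed above 0 in every alternative, from 0.60 to 0.85 in Foxp3-negative activated and 0.88 to 1.97 in Foxp3-positive cells of spleen, and 0.53 to 1.54 in Foxp3-negative activated cells of marrow. In Foxp3-positive cells of marrow, at 1.35, it was 1.99 with a Cd4 UMI, 0.50 with at least 2 Foxp3 UMIs, 0.42 without other lineages' UMIs and 0.66 under TMM.

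Genes past 2-fold were 313 in Foxp3-positive cells of marrow, and 124 with at least 2 Foxp3 UMIs, 86 without other lineages' UMIs, 94 without the cell with most UMIs of each gene, 107 at a minimum of 50 UMIs and 1581 at 5. Those of Foxp3-negative activated cells of marrow were 661, and 370 with a Cd4 UMI, 247 without other lineages' UMIs, 200 at 50 UMIs and 2332 at 5. In Foxp3-positive cells of spleen they were 399, and 155 with a Cd4 UMI, 1133 with B cell UMIs let in, 220 without the top cell, 91 at 50 UMIs and 1759 at 5. Those of Foxp3-negative activated cells of spleen were 1450, and 862 at 50 UMIs and 2441 at 5.

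Of 2279 recomputed gene ratios, 1989 stayed within their interval, 263 moved beyond it and 27 reversed. The total includes the settings of at least 500 genes and of at most 10% mitochondrial UMIs. These hardly changed the members, and each kept all 234 ratios within their interval. With a Cd4 UMI, 152 of 221 stayed, 62 moved and 7 reversed. Reversed log2 ratios in Foxp3-positive cells of marrow were Tnfrsf9 -2.95 and Ikzf2 -0.64 with at least 2 Foxp3 UMIs, and Tnfrsf9 -0.43, Tubb5 -0.15 and Ikzf2 -0.66 without other lineages' UMIs. Foxp3-negative activated cells of marrow gave Nkg7 1.62, Ube2c 2.36 and Stmn1 1.04 with a Cd4 UMI, and Rora -0.16, Irf8 0.48, Ube2c 0.061 and Atf3 -0.94 without other lineages' UMIs. In Foxp3-positive cells of spleen they were Batf -1.35, Rora -0.77 and Jun 1.46 with a Cd4 UMI, Tnfsf8 -0.31 and Itgb1 2.11 with at least 2 Foxp3 UMIs, Tgfb1 -0.25, Capg -0.34, Itgb1 0.30, H2-Eb1 -1.06 and Cd74 -1.41 with B cell UMIs let in, and Itgb1 0.97 and H2-Eb1 -0.20 without the top cell. Foxp3-negative activated cells of spleen gave Il5 -1.04 with a Cd4 UMI and -0.68 without the top cell, and Nr4a1 -0.64 with B cell UMIs let in. The cause was not tested. Letting in cells with B cell UMIs, and thinning within the raw gate, were chosen after seeing the data. Depth limits the Foxp3-positive cells of marrow most, where 4 cells stood in BM-shPrmt9.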
